A study of Mus musculus with 40 samples.

Results

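The protocadherin genes were taken as all gene symbols beginning with Pcdh, which selected 71 of the 23955 genes in the count table. They comprised 15 Pcdha, 22 Pcdhb and 22 Pcdhg genes, here called the clustered members, and 12 genes outside these clusters, here called the other members. The series measured hypothalamic mRNA of untreated mice under basal conditions in 40 strains. These were 36 BXD lines (recombinant inbred lines from a cross between C57BL/6J and DBA/2J), the reciprocal hybrids B6D2F1 and D2B6F1, and the inbred parents C57BL/6J and DBA/2J. Each strain gave 1 library, made for a BXD line from the pooled RNA of 3 to 6 hypothalami. A repeat library was made for none of the strains, so differences between strains hold the strain, the animals and the library together. Age and sex are not stated in the labels used here.

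Protocadherins are cell adhesion molecules of the cadherin superfamily with high expression in brain. The clustered genes lie side by side on mouse chromosome 18 in the order alpha, beta, gamma. In the alpha and gamma clusters each variable exon has its own promoter and is spliced to constant exons shared by the cluster, whereas each beta gene is a single exon. Individual neurons use different combinations of these promoters, and the encoded proteins bind like to like between cells, which underlies self-avoidance of dendrites and axons. The C-type isoforms, Pcdhac1, Pcdhac2, Pcdhgc3, Pcdhgc4 and Pcdhgc5, stand at the ends of the alpha and gamma clusters and are used more uniformly. The other members are separate genes with roles in axon growth, synapses and, for some, epithelia or hair cells.

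Summed over all genes, the libraries held between 12.2 M and 40.4 M counts (median 23.6 M). All 12 neuropeptide and transcription factor markers on the hypothalamic list were detected in every library, including Pomc, Agrp, Hcrt and Oxt. BXD32 stood apart from the other lines. Its choroid plexus markers summed to 965 CPM (counts scaled per 1 M counts of the library, after TMM normalization), against a median of 111 CPM over the lines. It also had the highest myelin and pan-neuronal sums and the lowest mean of the striatal markers. The main slope results that rest on it are therefore also given without it. Sums, ranges, SDs and correlations over the lines include it.

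Of the 71 members, 67 averaged at least 1 CPM over the BXD lines, 56 of them clustered. Below that level were Pcdha4, Pcdha8, Pcdh12 and Pcdha4-g, and Pcdha4-g had no read in any library. The summed level of the Pcdhg genes was 320 ± 34.8 CPM over the BXD lines (SD, n = 36), and it ran from 225 CPM in BXD32 to 387 CPM in BXD29. The Pcdhb genes summed to 161 ± 13.5 CPM, from 130 CPM in BXD95 to 193 CPM in BXD32. The Pcdha genes summed to 72.5 ± 4.67 CPM, from 62.0 CPM in BXD83 to 81.1 CPM in BXD48. BXD32 thus held both the lowest Pcdhg and the highest Pcdhb sum. The hybrids had Pcdhg sums of 323 CPM in B6D2F1 and 315 CPM in D2B6F1, and the parents had 367 CPM (C57BL/6J) and 312 CPM (DBA/2J). The 12 other members summed to 1273 ± 76.2 CPM over the lines.

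The clearest pattern over the BXD lines was a division of the lines by a subset of Pcdhg genes, led by Pcdhga11. Pcdhga11 ranged from 3.35 CPM in BXD89 through a median of 5.03 CPM to 17.8 CPM in BXD29, and no line lay between 6.08 and 12.9 CPM. The widest step between neighbouring lines was 1.08 log2 units, searched for with at least 6 lines to either side of it, and it left 12 lines above and 24 below. The lines above were BXD29, BXD51, BXD55, BXD65, BXD70, BXD73, BXD83, BXD85, BXD87, BXD97, BXD98 and BXD103. Pcdhga11 was at 8.96 CPM in B6D2F1 and 9.74 CPM in D2B6F1, against 14.2 CPM in C57BL/6J but 6.30 CPM in DBA/2J. C57BL/6J therefore lay within the range of the 12 lines above the step, DBA/2J lay just over the highest of the 24 lines below it, and both hybrids lay between the parents. The Pcdhga11 values rested on 74 to 558 reads per BXD line. Across all genes with a mean of at least 1 CPM, 0.476% had a step of at least 1 log2 unit (69 of 14487), and Pcdhga11 was the member among them. At 0.5 log2 units there were 2 members (1.3% of all genes) and at 0.3 log2 units 4 members (2.23% of all genes), the others being Pcdhgb6, Pcdhga3 and Pcdhgb8.

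Pcdhgb6, which lies 3 genes before Pcdhga11 in the gamma cluster, had a step of 0.69 log2 units at the same place in the order of lines. The 12 lines above the Pcdhga11 step had 13.1 to 23.4 CPM of Pcdhgb6, and the 24 lines below had 3.80 to 8.09 CPM. Pcdhgb6 was at 11.3 CPM in B6D2F1 and 12.3 CPM in D2B6F1, against 17.8 CPM in the parent C57BL/6J and 8.01 CPM in the parent DBA/2J. Pcdhga3, near the beginning of the gamma cluster, had a step of 0.40 log2 units, again between these 12 and 24 lines. The 12 lines had 12.4 to 16.5 CPM of Pcdhga3 and the 24 lines had 3.84 to 9.39 CPM. The hybrids had 8.17 CPM in B6D2F1 and 8.85 CPM in D2B6F1, and the parents had 12.9 CPM (C57BL/6J) and 6.30 CPM (DBA/2J). For all 3 genes the hybrids therefore stood between the parents.

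Pcdhgb8, the gene next after Pcdhga11 and annotated as a polymorphic pseudogene, ran the other way. The 12 lines above the Pcdhga11 step had 2.24 to 3.11 CPM of Pcdhgb8, and the 24 lines below it had 4.14 to 7.19 CPM. Its step was 0.40 log2 units. Its level was 3.75 CPM in B6D2F1 and 4.07 CPM in D2B6F1, against 3.54 CPM for C57BL/6J and 4.18 CPM for DBA/2J. The parental difference was -0.23 ± 0.21 log2 units (C57BL/6J minus DBA/2J, counting SE), and the C57BL/6J value lay above all of the 12 lines. In reads recovered from the authors' normalized table, which leave out BXD32 and BXD103 and also differ from the raw table in their counts, the step of Pcdhgb8 was 1.13 log2 units.

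The 12 lines also held the 12 highest values of Pcdhgb5, at 4.94 to 7.41 CPM, with 1.88 to 4.54 CPM in the 24 lines. They held the 12 highest values of Pcdhgb7 as well, at 8.61 to 13.2 CPM, with 4.84 to 7.80 CPM in the 24 lines. In all, 5 of the 66 other protocadherins with a mean of at least 1 CPM separated the same 12 and 24 lines without overlap. Over all 14486 genes the share was 0.0345%, which is 5 genes, so these 5 were all protocadherins of the gamma cluster. Pcdhgb2 was close to this pattern, with 7.42 to 11.7 CPM in the 12 lines and 4.48 to 7.80 CPM in the 24 lines. Because the lines were told apart by Pcdhga11 itself, no mean and no direct test is given between the 12 and the 24. The slopes on Pcdhga11 given below rest largely on the same division and are not separate evidence for it. Genotypes of the lines at the clusters were not analysed here.

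**Figure D1:**
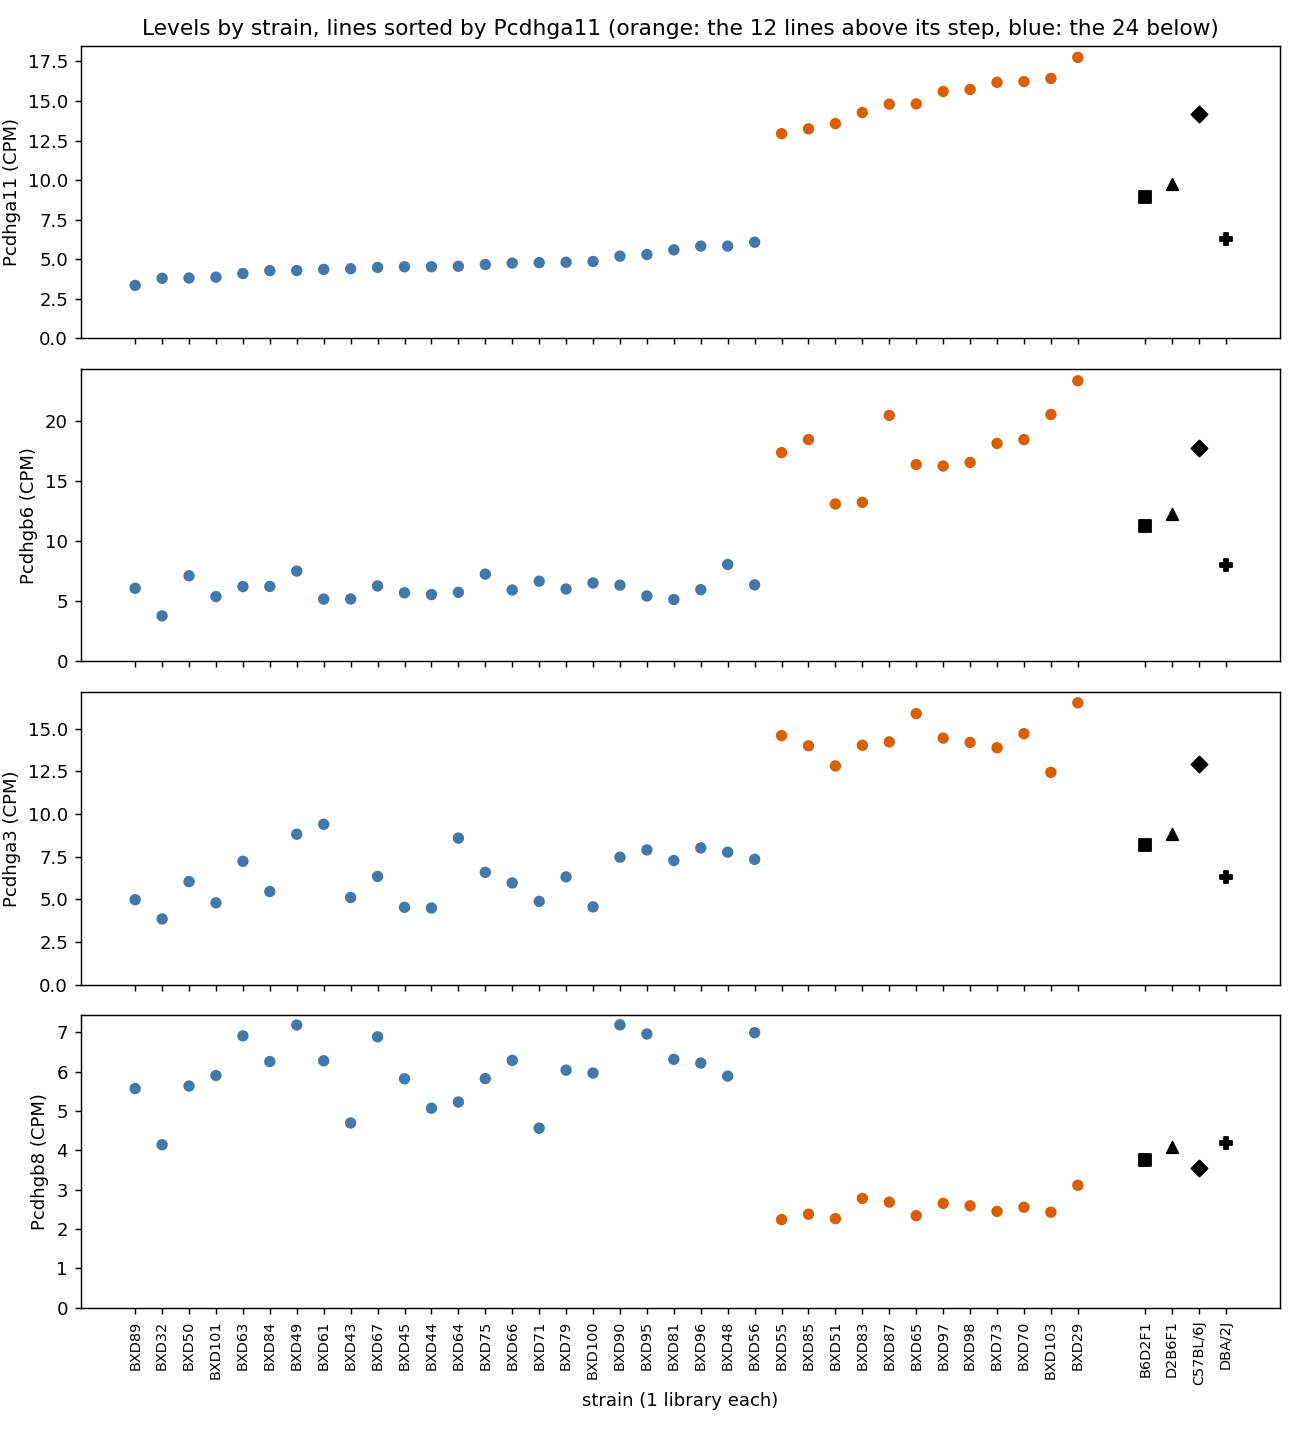
Level of Pcdhga11, Pcdhgb6, Pcdhga3 and Pcdhgb8 in each strain (CPM, y axis from 0), with the BXD lines sorted by Pcdhga11 and the hybrids and parents at the right. Each point is 1 library. The 12 lines above the Pcdhga11 step (orange, 12.9 to 17.8 CPM) are also the 12 highest for Pcdhgb6 and Pcdhga3 and the 12 lowest for Pcdhgb8.

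To see how far along the clusters this pattern reached, the slope of every gene on the log2 level of Pcdhga11 was fitted over the 36 lines with edgeR's quasi-likelihood test and Benjamini-Hochberg adjustment over all genes. This comparison was added after the values of Pcdhga11 had been seen. Of the 68 other members tested, 13 passed an adjusted p of 0.05 (10 with positive and 3 with negative slopes), which is 19.1%, against 0.12% of all genes (19 of 15778). Positive slopes passed for 0.0761% of all genes and negative ones for 0.0444%. The largest slopes were 0.88 ± 0.044 log2 units per log2 unit of Pcdhga11 for Pcdhgb6 (SE, edgeR adjusted p = 2.34e-18) and 0.69 ± 0.052 for Pcdhga3 (edgeR adjusted p = 1.67e-12). The Pcdhgb8 slope was -0.67 ± 0.058 (edgeR adjusted p = 9.84e-11). Pcdhgb5, Pcdhgb2 and Pcdhgb7 had slopes of 0.57, 0.51 and 0.45.

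The called members lay in the gamma cluster and at the beginning of the beta cluster, with uncalled genes between some of them. For example, Pcdhgb1 lies between Pcdhga3 and Pcdhga4 and was not called. In the gamma cluster they also included Pcdhga2 (0.23) and Pcdhga12 (0.28), with positive slopes, and Pcdhga4 (-0.29), with a negative one. Up to 34.8% of the 100-base words in the variable part of Pcdhga4 occur in another member, so its reads could be split or lost between genes. The corresponding shares were 32.3% for Pcdhgb1, whose missing call has the same limit, 0.038% for Pcdhga11 and 2.89% for Pcdhgb6. In the beta cluster the neighbours Pcdhb4 (0.43), Pcdhb5 (0.47) and Pcdhb6 (0.27) had positive slopes and Pcdhb1 had a slope of -0.47 (edgeR adjusted p = 0.00307). With edgeR, no beta gene from Pcdhb7 to Pcdhb22 passed, and no Pcdha gene or C-type isoform did, although Pcdha9 passed with DESeq2. Pcdhb5 ran from 4.70 to 8.62 CPM in the 12 lines and from 2.43 to 5.07 CPM in the 24 lines, so its ranges overlapped.

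**Figure D2:**
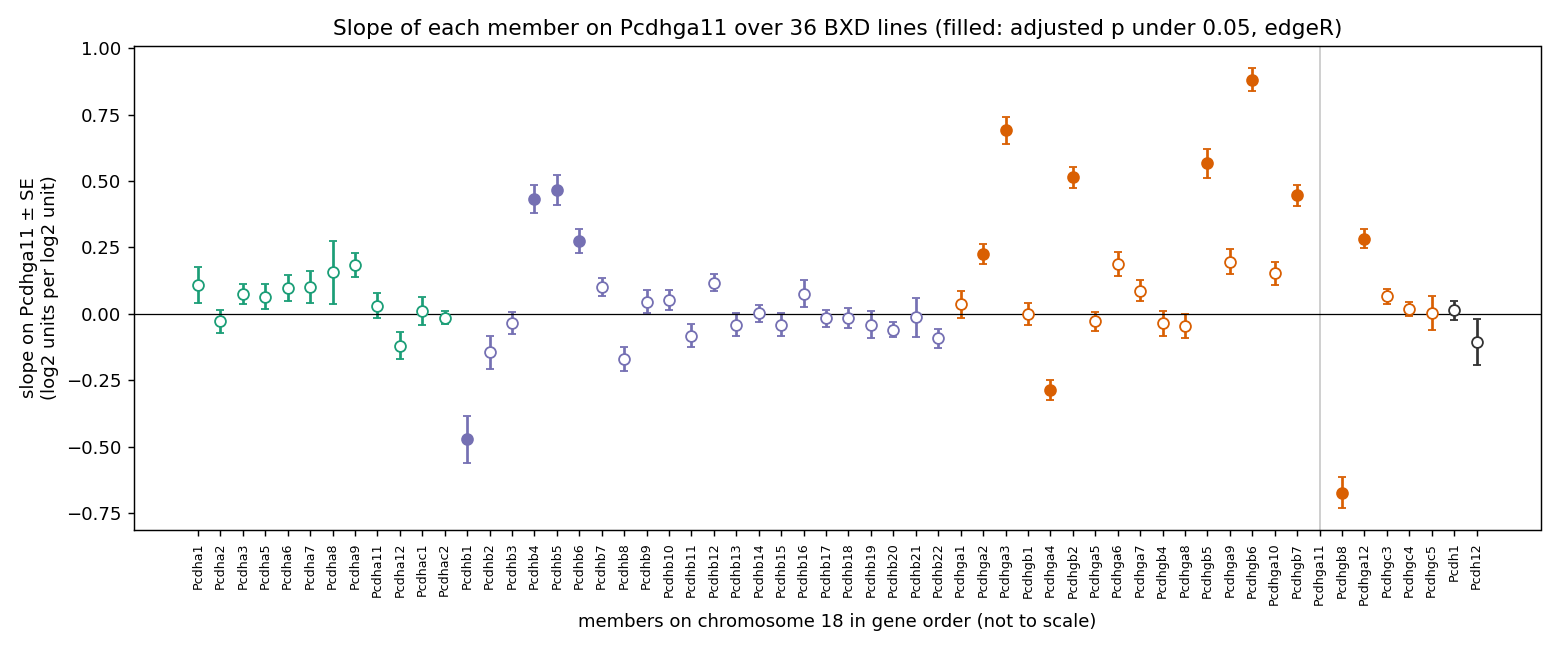
Slope of each chromosome 18 member on Pcdhga11 over the 36 BXD lines (log2 units per log2 unit, bars are SE), in gene order and not to scale, with Pcdhga11 itself marked by a grey line. Filled points passed an adjusted p of 0.05: they range from 0.88 for Pcdhgb6 to -0.67 for Pcdhgb8 and lie in the gamma cluster and at the beginning of the beta cluster.

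Beyond the protocadherins, 6 genes followed Pcdhga11. Among tested genes with a matched position, 0 of the 50 before the clusters and 2 of the 50 after them passed the edgeR test. One of these was Fgf1, a fibroblast growth factor, with a slope of -0.29 ± 0.041 (edgeR adjusted p = 2.87e-05). The other was 1700086O06Rik, with a slope of -0.24. Of 259 further tested genes of chromosome 18, 1 passed, Gm10548, with the largest slope of the 6 (1.97 ± 0.22, edgeR adjusted p = 1.81e-07) at a mean of 0.458 CPM. Of 14551 tested genes placed on other chromosomes, 1 passed, 5031425E22Rik (0.15). Of 810 genes with no match in the annotation, 2 passed, 4833403I15Rik (-1.70, mean 1.28 CPM) and Epb4.1l4a (-0.15). The chromosomes of these unmatched genes were not determined. The counts by position leave them out and may be incomplete on either side of the clusters. The count of 13 called members was also 13 with DESeq2's size factors, without a filter on low counts, in the recovered reads, without the lines at both ends of Pcdhga11 and without BXD32, and DESeq2 called 16, adding Pcdhga6, Pcdhga9 and Pcdha9 (adjusted p = 0.0421, 0.0306 and 0.0463 with DESeq2). Pcdhga12 did not pass in the recovered reads (slope 0.14, edgeR adjusted p = 0.336), whereas Pcdhga9 did (slope 0.18, edgeR adjusted p = 0.0365).

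Within each set of lines no correlation with Pcdhga11 passed the test. Correlations of its log2 level with 8 called members were computed separately over the 24 lines below the step and the 12 lines above it, 16 in all. None passed after Benjamini-Hochberg adjustment (permutation tests, smallest adjusted p = 0.191), and the median Pearson r was 0.22 over the 24 lines and 0.14 over the 12 lines. The highest r was 0.65 for Pcdhgb8 over the 12 lines, where Spearman's rho was 0.49 (permutation p = 0.0222 for r and 0.111 for rho, adjusted p = 0.191 for r and 0.356 for rho), and r was 0.27 once the 2 lines most distant from the median Pcdhga11 level were left out. For Pcdhgb6 r was 0.56 over the 12 lines, and for Pcdhga3 it was 0.46 over the 24 lines. The lowest r was -0.26, for Pcdhb5 over the 12 lines. At 12 and 24 lines such correlations are loosely determined. Parting the lines by Pcdhga11 also narrowed its range within each set, so these correlations cannot decide whether the genes follow it there.

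The same genes led the difference between the parental strains. With 1 library for each parent the difference was judged by size, with counting errors only. Of the 53 members with at least 5 CPM in either parent, 10 differed by at least 0.5 log2 units. Among all 12166 genes at that level the share was 2.99%. This background was not matched to the members for level, and poorly counted genes pass a size limit more easily by counting error. Of the 10 members, 7 were higher and 3 lower in C57BL/6J. At a difference of 1 log2 unit there were 3 members, against 0.649% of all genes. These were Pcdhga11 (1.16 ± 0.14, counting SE, C57BL/6J minus DBA/2J), Pcdhgb6 (1.14 ± 0.12) and Pcdhga3 (1.03 ± 0.14). Pcdhgb7 (0.87), Pcdhgb5 (0.77) and Pcdha9 (0.73) came next. Pcdha9 had 6.72 CPM in the C57BL/6J library, against 4.03 CPM in that of DBA/2J.

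Among the members lower in C57BL/6J, Pcdhb22 had 7.63 CPM in the C57BL/6J library, against 11.9 CPM in that of DBA/2J, a difference of -0.64. Pcdhb2 (-0.56 ± 0.20, counting SE) and Pcdha3 (-0.53 ± 0.19) were the others. The remaining member past 0.5, Pcdhb5, was higher in C57BL/6J by 0.62 ± 0.19 (counting SE). Over all 53 members the median parental difference was 0.02 log2 units, and over all genes it was 0.01. Between the reciprocal hybrids, 0 of the 49 members with at least 5 CPM in either hybrid differed by 0.5 log2 units, against 0.8% of 12126 genes. Below that level, Pcdhb21 (0.80 ± 0.28, B6D2F1 minus D2B6F1, counting SE) and Pcdhb2 (0.59 ± 0.21) differed by more.

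The families differed in how much their members varied over the BXD lines. A gene was counted as spread when its SD of log2 CPM was at least 2 times the SD that counting alone would give. By this rule 64.3% of 14487 genes with a mean of at least 1 CPM were spread, and 53.6% of the 9893 genes in the range of means of the clustered members. Among the members, 19 of 22 Pcdhg genes (86.4%), 8 of 22 Pcdhb genes (36.4%), 2 of 12 Pcdha genes (16.7%) and all 11 other members were spread. The rule depends on depth, since a well-counted gene passes with a smaller SD. The SD itself includes counting error, which is larger for poorly counted genes. The median SD was 0.29 log2 units for Pcdhg, 0.21 for Pcdhb, 0.23 for Pcdha and 0.17 for the other members, against 0.15 over all these genes and 0.17 over those in the range of means of the clustered members.

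Pcdhga11 had the highest SD of all members (0.83), followed by Pcdhgb6 (0.76) and Pcdhga3 (0.64). At the other end of the gamma cluster, the C-type gene Pcdhgc4 had an SD of 0.15. In the beta cluster Pcdhb1 (0.55), Pcdhb5 (0.47) and Pcdhb4 (0.43) varied most and Pcdhb20 least (0.13). Pcdhb1, the first gene of the beta cluster, ran from 0.494 CPM in BXD70 through a median of 1.59 CPM to 2.43 CPM in BXD101. The hybrids had 1.09 CPM in B6D2F1 and 0.980 CPM in D2B6F1, and the parents had 0.716 CPM (C57BL/6J) and 1.37 CPM (DBA/2J). Of the 36 lines, 20 lay above both parents for Pcdhb1. In the alpha cluster the SD was 0.35 for Pcdha1, 0.32 for Pcdha7 and 0.27 for Pcdha12, and 0.12 for the C-type gene Pcdhac2. Of these, Pcdha12 and Pcdhac2 were counted as spread. Pcdha1 and Pcdha7 were not, since counting alone would give 0.22 and 0.16.

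**Figure D3:**
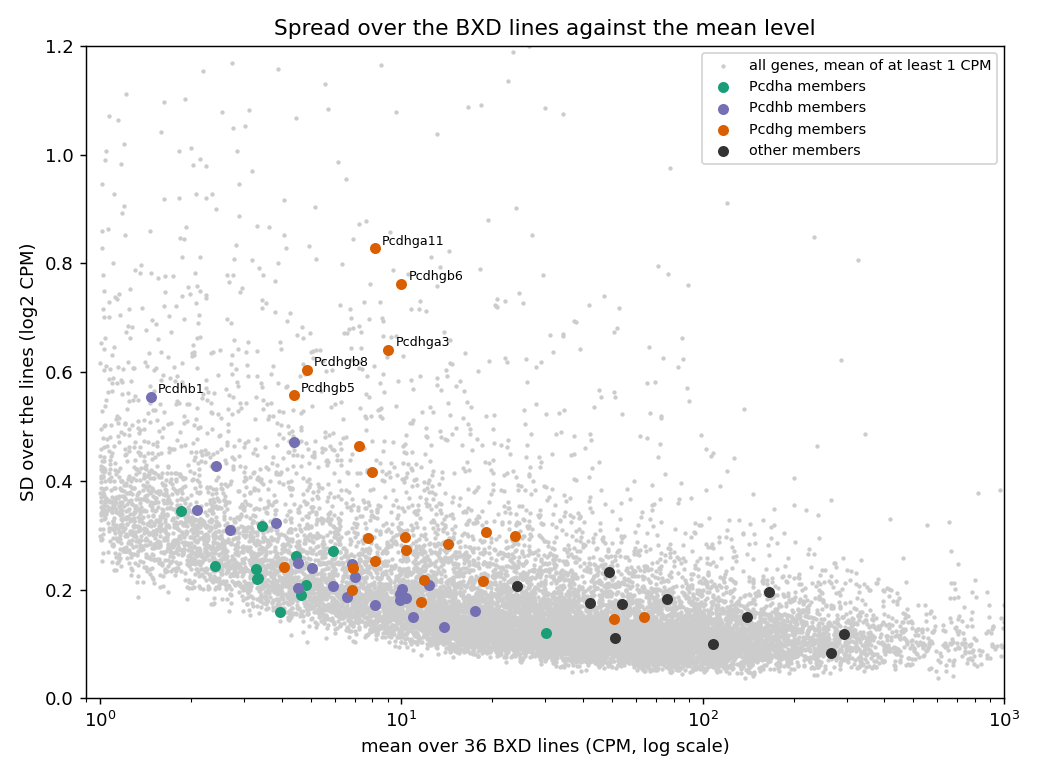
SD of log2 CPM over the 36 BXD lines (y axis) against the mean level (x axis, CPM, log scale) for the members and for all genes with a mean of at least 1 CPM; a few genes lie outside the axes. Pcdhga11 (0.83), Pcdhgb6 (0.76) and Pcdhga3 (0.64) stand above the other members, and most Pcdha and Pcdhb genes lie within the cloud of all genes.

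**Figure D4:**
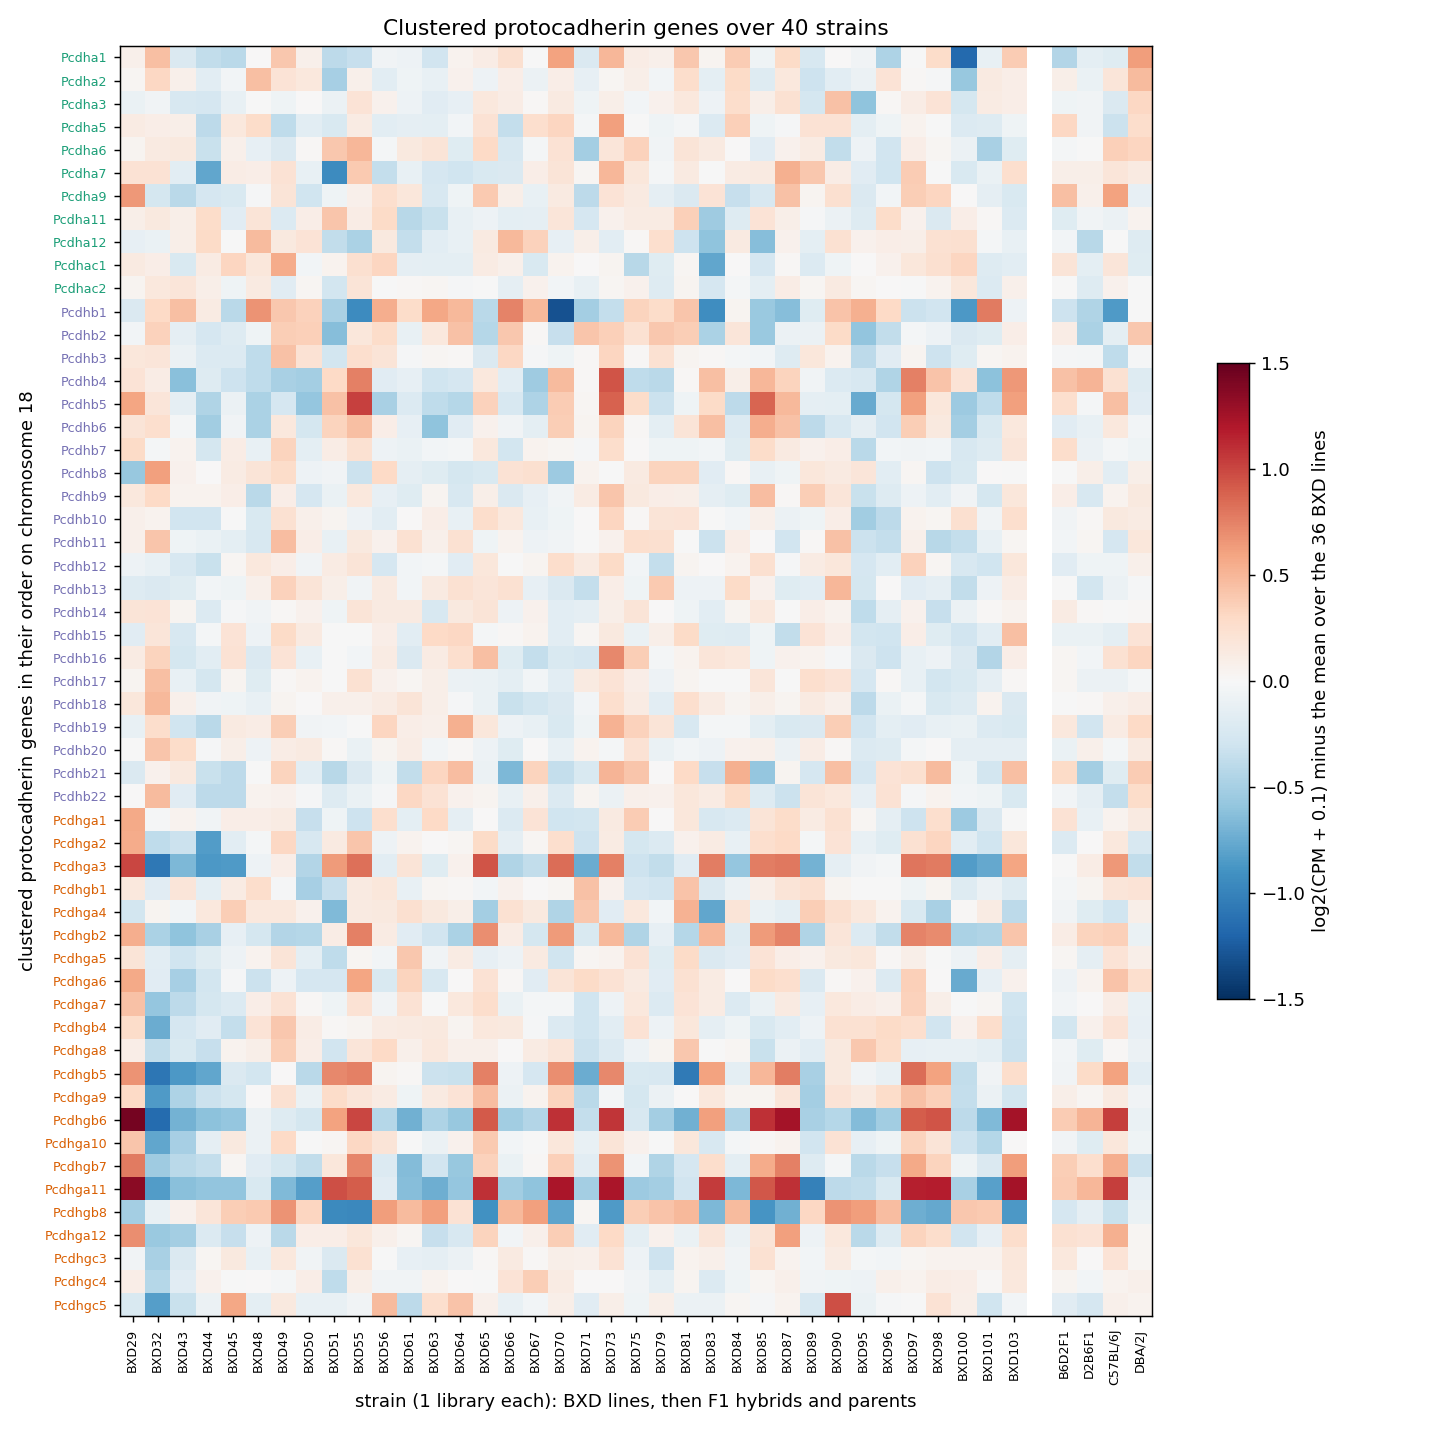
Level of the clustered members with a mean of at least 1 CPM and a known position, in gene order (rows), in each strain (columns, 1 library each), as log2 CPM with a small constant added, minus the mean over the 36 BXD lines. The rows of Pcdhga3, Pcdhgb5, Pcdhgb6, Pcdhgb7 and Pcdhga11 share the same red columns, in which Pcdhgb8 is blue, and the rows of the alpha cluster show no such columns.

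Correlations between members of a family were low in the median. The median correlation of log2 CPM between 2 genes of a family over the 36 lines was 0.28 for Pcdhb, 0.27 for Pcdhg, 0.24 for the other members and 0.17 for Pcdha. Between families the medians ran from -0.03 (Pcdhb with the other members) to 0.10 (Pcdha with Pcdhb), and over pairs of all genes the median was -0.002. These values are a description, since all pairs share the same libraries and depth. Counting error also lowers them, so low values do not show that members vary apart, and they cannot rank the families. It weighs most on poorly counted genes, and 2 of 12 Pcdha and 8 of 22 Pcdhb genes were counted as spread. Within the gamma cluster the pairs ran from -0.90 to 0.95, which spans the opposite courses of Pcdhgb8 and the Pcdhga11 set.

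Among the C-type isoforms, the SD over the lines was 0.12 log2 units for Pcdhac2 and 0.15 for both Pcdhgc3 and Pcdhgc4, against 0.24 for Pcdhac1 and 0.30 for Pcdhgc5. Counting alone would give 0.20 for Pcdhac1, 0.055 for Pcdhac2 and 0.062 for Pcdhgc5. Pcdhac1 was therefore not counted as spread, whereas Pcdhac2 and Pcdhgc5 were. Pcdhac2, which guides the spacing of serotonergic axons in mice, made up a median of 41.3% of the Pcdha reads over the lines, with a range of 37.3% to 46.3%. Pcdhac1 made up a median of 3.27%. Pcdhgc3 took a median of 20.1% of the Pcdhg reads (15.9% to 22.9%), and Pcdhgc4, which is needed for neuronal survival in mice, took 15.9% (13.2% to 19.98%). Pcdhgc5 took a median of 6.94% but ranged from 5.13% to 12.9%. Shares compare reads and not transcripts, since genes of different length yield different numbers of reads. Pcdhga11, by contrast, ranged from 1.15% to 4.76% of the Pcdhg reads, and was at 3.85% in C57BL/6J (Wilson 95% interval 3.48% to 4.27%, counting error only) and 2.02% in DBA/2J (1.74% to 2.35%).

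To describe how the members moved with transcripts of neighbouring tissue, the slope of every gene on lists of marker genes was fitted over the lines. For the list of striatal and septal markers, which includes Drd2, Adora2a and Ppp1r1b, 4 of 69 members passed the edgeR test, all with positive slopes. Among all genes 4.74% passed (770 of 16249), 3.54% with positive slopes, so this number of members was near the background. Pcdhgc5 had the largest slope, 0.48 ± 0.050 log2 units per log2 unit of the list (SE, edgeR adjusted p = 2.03e-09). It was lowest in BXD32 at 13.1 CPM and highest in BXD90 at 45.6 CPM, with a median of 22.6 CPM over the lines, and these were also the lines with the lowest and highest striatal list. BXD90 had the highest sum of the cortical and hippocampal glutamatergic markers as well, 156 CPM against a median of 75.8 CPM over the lines, and the part of these transcripts in the Pcdhgc5 slope was not tested. All 8 striatal markers had reads in every library, and their sum ran from 236 to 1131 CPM over the lines and from 250 to 368 CPM in the hybrids and parents.

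The Pcdhgc5 slope was 0.42 without both of these lines (edgeR adjusted p = 9.27e-05) and 0.44 without BXD32 alone (edgeR adjusted p = 4.38e-09). Pcdhb19 had a slope of 0.27 ± 0.068 (edgeR adjusted p = 0.0105) and ran from 3.73 to 7.24 CPM. Pcdhb13 (0.22 ± 0.059) and Pcdh10 (0.09 ± 0.025) also passed (edgeR adjusted p = 0.0229 and 0.0323). Without BXD90 neither passed, at slopes of 0.19 for Pcdhb13 and 0.09 for Pcdh10 (edgeR adjusted p = 0.290 and 0.240). Pcdh10, a cadherin of growing striatal axons, ran from 242 CPM in BXD101 to 304 CPM in BXD63. In bulk tissue, a different number of cells of a type and a different amount of RNA per cell cannot be told apart.

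**Figure D5:**
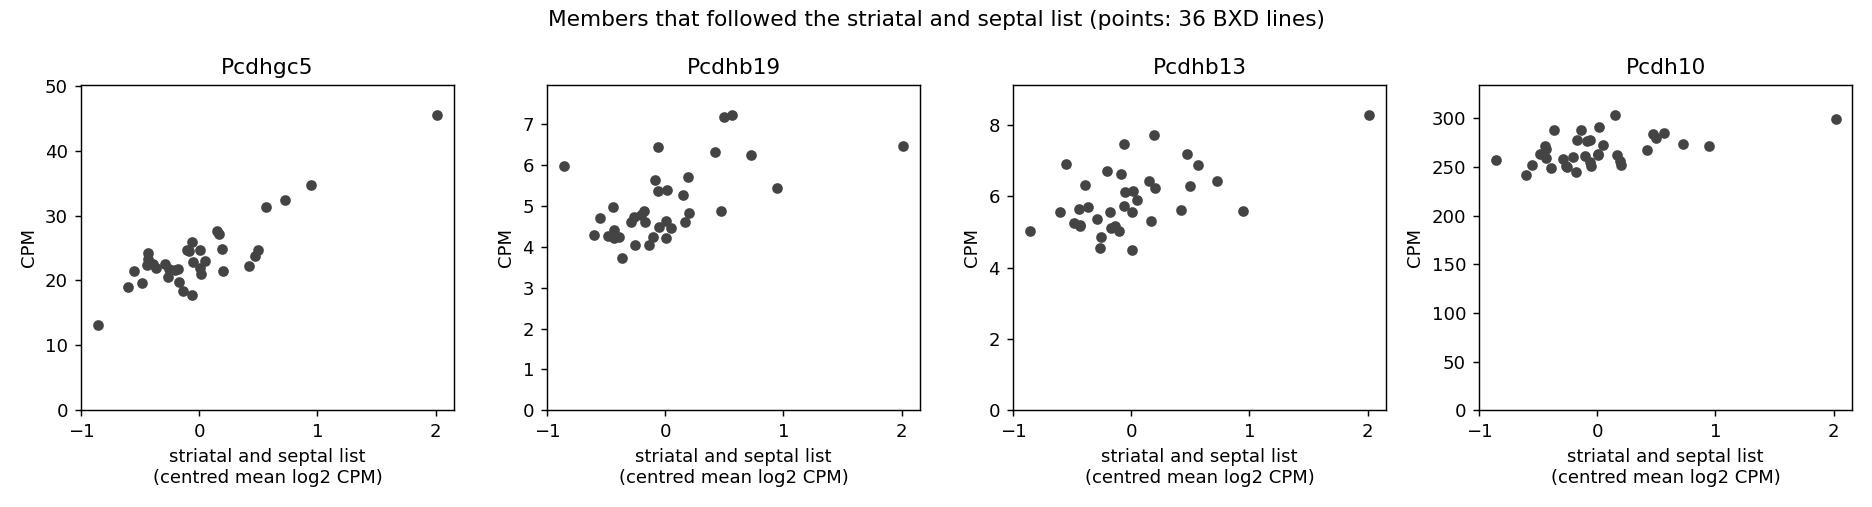
Level of the 4 members that passed the test on the striatal and septal list (CPM, y axes from 0) against the mean log2 level of that list, centred over the lines, with 1 point per BXD line. The point at the far right is BXD90, with 45.6 CPM of Pcdhgc5, and the point at the far left is BXD32, with 13.1 CPM.

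On the oligodendrocyte list 0 of 69 members passed the edgeR test, against 1.42% of all genes, and DESeq2 also called 0. At an unadjusted p of 0.05 there were 18 members, 11 of them Pcdhb genes, and the share of all genes was 9.36%. The smallest adjusted p among them was 0.138, for Pcdhb17 (edgeR). On the thalamic list 0 members passed with edgeR, against 1.52% of all genes, and 0 with DESeq2, with 6 at an unadjusted p of 0.05 (10.3% of all genes). In the recovered reads 2 members passed, as did 509 of all 15246 genes in that fit. On the meningeal list 0 members passed with edgeR, against 1.93% of all genes, and 0 with DESeq2, with 3 at an unadjusted p of 0.05 (8.6% of all genes).

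The best-counted gene of each cluster was used to ask which genes moved with it over the lines. For Pcdhb17, 2 of 68 members passed the edgeR test, against 0.18% of all genes. Pcdhb18, its neighbour, had a slope of 0.84 ± 0.14 (edgeR adjusted p = 0.00193) and Pcdhb9 a slope of 0.89 ± 0.17 (edgeR adjusted p = 0.00536). Both genes lie in the same cluster as Pcdhb17, which ran from 14.4 CPM in BXD98 to 23.96 CPM in BXD32. Without BXD32 only Pcdhb9 passed, and the Pcdhb18 slope was 0.76. Without the lines at both ends of Pcdhb17 neither passed, at slopes of 0.74 for Pcdhb18 and 0.99 for Pcdhb9. For Pcdhac2, 2 members passed, Pcdh7 (0.61 ± 0.19) and Pcdh10 (0.35 ± 0.11), against 8.96% of all genes. No other Pcdha gene was among them. Without the lines at both ends of Pcdhac2 neither passed, at slopes of 0.63 for Pcdh7 and 0.37 for Pcdh10. For Pcdhgc3, 11 of 68 members passed, against 12.4% of all genes, and 0 did without BXD32.

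No member passed a test of the kind of strain or of Fgf15, the gene of the series title. Between the 36 BXD lines and the 4 hybrid and parental libraries, 0 of 69 members and 0 of all 16198 genes passed the edgeR test. DESeq2 called 0 members. No member had an unadjusted p under 0.05, whereas 1.01% of all 16198 genes did. Their differences ran from -0.30 to 0.51 log2 units, with a median of -0.01. Between the 2 hybrids and the 38 inbred libraries, 0 of 69 members and 0 of all 16434 genes passed with edgeR, and DESeq2 called 0 members. No member had an unadjusted p under 0.05, against 0.663% of all genes. Since no gene passed either comparison with edgeR, these counts are not particular to the members. On the log2 level of Fgf15, which averaged 1.01 CPM over the lines, 0 of 69 members passed with edgeR, against 0.00631% of all genes, and 0 with DESeq2. Only Pcdhb19 and Pcdh17 had an unadjusted p under 0.05, which 5.18% of all genes had. The smallest adjusted p was 0.825, for Pcdhb19 with a slope of 0.13 ± 0.045 (edgeR).

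The other members lie on several chromosomes, and their median SD over the lines was the lowest of the 4 sets. That SD includes counting error, which is smaller for these well-counted genes, so it does not show that they vary least between lines. All 11 with a mean of at least 1 CPM were counted as spread. Pcdh10 had the lowest SD of all members with at least 1 CPM (0.083 log2 units), at 267 ± 15.5 CPM. Pcdh17, which acts in axon extension of the amygdala in mice, was at 294 ± 24.5 CPM, from 257 CPM in BXD79 to 350 CPM in BXD44. Pcdh9 was at 166 ± 24.5 CPM, and its highest value, 265 CPM, was in BXD32, the line with the highest myelin sum. Pcdh7 was at 140 ± 14.6 CPM, from 113 CPM in BXD85 to 173 CPM in BXD43.

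The X-linked genes Pcdh19, whose mutations cause an epilepsy in humans, and Pcdh11x were at 109 ± 7.52 CPM (94.4 to 127 CPM) and 53.9 ± 6.42 CPM (41.4 to 68.5 CPM). Pcdh1, which lies on chromosome 18 beyond the clusters, was at 76.2 ± 8.88 CPM, with its lowest value of 51.4 CPM in BXD51. Pcdh15, a component of the tip links of hair cells, was at 51.2 ± 3.97 CPM (44.2 to 61.6 CPM). Pcdh8, an activity-regulated gene of synapses, had the highest SD of this set (0.23), at 48.9 ± 7.56 CPM, and was lowest in BXD32 at 31.8 CPM.

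Pcdh20 was at 42.1 ± 5.12 CPM (32.4 to 53.5 CPM) and was lowest in BXD90, the line with the highest striatal list. Pcdh18 was at 24.2 ± 3.42 CPM (18.3 to 29.98 CPM) with an SD of 0.21 log2 units. Pcdh12, a cadherin of vascular endothelium, was at 0.930 ± 0.274 CPM (0.415 to 1.85 CPM). All these errors are SD over 36 lines. The parental difference of each of these 12 genes was under 0.5 log2 units except for Pcdh12, which rested on few reads, at 0.835 CPM for C57BL/6J and 1.25 CPM for DBA/2J.

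Genes known to act on the clusters or with their proteins were followed as 2 lists that hold no members. Of 16 regulators of the clusters, such as Ctcf, cohesin subunits, Smchd1 and DNA methyltransferases, and of 26 partners and effectors, such as Fyn, Ptk2b and the WAVE complex, 0 passed the edgeR test on Pcdhga11. The median slopes were -0.02 and -0.01, beside -0.002 over all genes. On the striatal list, 1 of 16 regulators and 2 of 26 partners passed, against 4.74% of all genes. The kinase gene Ptk2b (1.00 ± 0.069, edgeR adjusted p = 4.53e-14) and the WAVE gene Wasf1 (0.23 ± 0.025, edgeR adjusted p = 4.61e-09) had positive slopes. The methyltransferase gene Dnmt1 had a slope of -0.09 (edgeR adjusted p = 0.0257). With edgeR, neither list had a called gene in the comparison of the BXD lines with the hybrids and parents, in that of the hybrids with the inbred strains, on Fgf15, or on the oligodendrocyte, thalamic or meningeal list. On Pcdhac2, 4 regulators and 5 partners passed, all with positive slopes, against 8.96% of all genes in either direction. Over the whole table the call count with Pcdhac2 included was 1435, of which 916 had positive slopes. Without the lines at both ends of Pcdhac2 it was 578. On Pcdhgc3, 3 regulators and 7 partners passed, against 12.4% of all genes, but over the whole table the call count with Pcdhgc3 included was 2001 with BXD32 and 1 without it. On Pcdhb17 none of either list passed with edgeR.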

How the data were processed

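Hypothalamic mRNA was prepared as stranded TruSeq libraries and sequenced as 100-base single-end reads, per the labels' protocols. TopHat2, HTSeq and DESeq with assembly mm9 are named in the submitters' processing notes, without roles or parameters. All strains were thus set against 1 mouse assembly, and its effect on reads with DBA/2J alleles was not tested. The authors deposited raw read counts per gene symbol, used for every result, and a normalized signal, counts divided by a size factor per library. Whole reads were recovered from that deposited signal for 38 libraries (100% whole within 0.01) and used only as an alternative, without BXD32 and BXD103.

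Counts were scaled by TMM to CPM, with a prior count of 2 for log2 values. edgeR 4.0.16 (quasi-likelihood, filterByExpr, robust) was fitted over all genes with Benjamini-Hochberg adjusted p under 0.05, on R 4.3.3. It was tested on simulated data first. DESeq2 1.42.0 was the other tool. Slopes used centred log2 levels over the 36 lines. Chromosomes and gene order came from GENCODE release 21 for mouse (GRCm38.p6), which matched 69 members, so no coordinates are given. In that annotation a median of 53.5% of the exon bases of Pcdha genes and 44.7% of those of Pcdhg genes also belong to another member, and 0% for Pcdhb genes. How reads in such shared exons were counted is not given in the sources used here. Totals of 12.2 to 40.4 M counts put the limit for a count of 0 (3 counts) at 0.245 to 0.0743 CPM, for counting error only.

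Members, gene lists and comparisons were chosen with earlier results of these data known. Members named with values were those past a test (up to 8 per comparison by size), the most and least variable of each family, the 6 largest parental differences, the C-type isoforms, those with a step of 0.5 log2 units or more, the best-counted gene of each cluster and all members outside the clusters. Further genes of the Pcdhga11 pattern, and those near the thresholds, were named after their values were seen.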

Additional observations from a re-analysis of the deposited data

How the results depend on the processing

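The results were repeated under other size factors, no filter on low counts, DESeq2, the recovered reads and the omission of libraries. Of 119 alternative values of summary results 106 were within the limits set for no change and 13 were not, and none reversed. These values include counts of called members, which have no direction to reverse. For both comparisons of the kind of strain and for Fgf15 this count was 0 in every setting. Few or no genes passed there at all, so those counts could hardly change, and the tally is no measure of robustness. Of the 320 alternative values of single genes and of counts over all genes, 240 were likewise unchanged, 58 kept their direction but no longer passed, 22 moved by more and none reversed. On the striatal list 2 members passed without BXD90, against 4 with it. On the thalamic list 2 passed in the recovered reads, against 0. On Pcdhac2, 0 passed without a filter on low counts and 0 without the lines at both ends of Pcdhac2, against 2. On Pcdhb17, 4 passed with DESeq2, 1 in the recovered reads, 0 without the lines at both ends and 1 without BXD32, against 2. On Pcdhgc3, 0 passed in the recovered reads, 0 without the lines at both ends, 7 without the smallest library (BXD55) and 0 without BXD32, against 11. Members with a step past the limit numbered 4 at 0.3 log2 units, against 2 at 0.5, and 3 at 0.5 without BXD32. The omissions hold fewer libraries by construction, and the recovered reads differ both in their lines (2 fewer) and in their counts. The cause of the changes was otherwise not tested. The omissions of 1 line or library, the recovered step and the slope on Pcdhga11 were partly added after seeing the data. All genes called on Pcdhga11 numbered 20 with that gene counted, and 36 with DESeq2 or without the filter. On the striatal list all genes called numbered 770, and 388 without BXD90. Levels near 1 CPM rest on few reads, which limits Pcdhb1, Pcdha8 and Pcdh12. No paired analysis was possible because a strain is represented by a single library and the labels pair no libraries between groups.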
